A study of Homo sapiens with 4 samples.

Results

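DUSP1, DUSP4, DUSP5, DUSP6, SPRY1, SPRY2, SPRY4, SPRED1 and SPRED2 were followed as the feedback genes of the ERK pathway in HCEC 1CT. This is a line of human colon epithelium that TERT and CDK4 keep dividing, grown in medium with EGF, hydrocortisone, insulin, transferrin, selenite and serum. The 9 genes were chosen by symbol, and all 9 are among the 33538 genes listed in each matrix. Cells received either shAPC, which lowers APC by RNA interference, or the scramble control shScr by viral transduction, were kept in puromycin and were sampled 3 and 7 days after transduction by droplet single-cell RNA sequencing. The 4 groups, shScr and shAPC at day 3 and the same pair at day 7, hold 1 library each, so the differences given here have no replicate check, no test between groups was run, and every interval covers counting error only. All 4 groups are the same line in the same medium with puromycin, the methods name 1 shRNA clone against APC, and the labels do not say how many cultures a library stands for.

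ERK is the last kinase of the chain that runs from growth factor receptors through RAS, RAF and MEK, and its activity switches on the genes that shut it down again. DUSP proteins of this group are phosphatases that remove the activating phosphates from MAP kinases. Sprouty and SPRED proteins act higher up, at the receptor, RAS and RAF. Because transcription of most of these genes follows ERK activity within a short time, their mRNA levels are widely used as a readout of the pathway, which in intestinal epithelium carries the EGF signal for proliferation.

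The data are UMI counts, where a UMI marks 1 captured mRNA molecule. A barcode was kept as a cell if it had 200 genes or more, 500 UMIs or more and less than 5% of its UMIs from mitochondrial genes, which left 788 to 2600 cells and 28451455 to 39797418 UMIs per library. Levels are CPM, the UMIs of a gene per 1000000 UMIs of all kept cells of a library. The kit counts molecules at one end of the transcript, so that levels of different genes were compared in CPM with no division by length. Median depth differed widely, from 1330 UMIs per cell in shScr day 7 to 49686 in shAPC day 3, and of the deposited barcodes 51.3% were over the mitochondrial limit in shAPC day 7 and 24.1% to 28.8% in each other library. APC had 16.1 CPM in shScr against 5.52 CPM for shAPC at day 3, and 19.1 and 6.61 CPM at day 7. Of the markers of the labelled cell type, EPCAM and CDH1 had 0 to 2 UMIs in each library. The other 4 of the 6 epithelial genes listed were detected at low levels, KRT8 at 9.57 to 19.4 CPM and in up to 44.4% of cells, CLDN7 at 6.26 to 16.9 CPM and in up to 27.9%, KRT18 at 3.02 to 7.13 CPM and KRT19 at 2.34 to 5.72 CPM. Of the 6 mesenchymal genes listed, VIM, FN1, COL1A1 and COL1A2 had 492 to 5304 CPM, ZEB1 27.7 to 35.7 CPM and CDH2 3.66 to 7.69 CPM. The libraries shared barcode sequences, with 23 deposited barcodes in common between shScr day 3 and shAPC day 3 and 25 between shScr day 7 and shAPC day 7. Without the shared barcodes every one of the 36 ratios given below stayed within its counting interval.

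Promoter sequence is shown for 3 members. They are DUSP1 as the most abundant and DUSP6 as a member with more CPM in shAPC at both days. SPRY2 is shown as the member whose interval lay above the median of all genes in shAPC at day 3 and below it at day 7. Each run holds the 150 bases that end just before the transcription start (RefSeq, GRCh38.p14), read 5′ to 3′ on the strand of the gene, which is the minus strand in all 3. Capitals mark the cAMP response element TGACGTCA. The windows lie at chr5:172771196-172771345 for DUSP1, chr12:89352502-89352651 for DUSP6 and chr13:80341127-80341276 for SPRY2.
DUSP1: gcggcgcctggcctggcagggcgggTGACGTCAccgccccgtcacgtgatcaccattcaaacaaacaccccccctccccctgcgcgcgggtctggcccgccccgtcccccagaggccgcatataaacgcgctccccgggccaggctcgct
DUSP6: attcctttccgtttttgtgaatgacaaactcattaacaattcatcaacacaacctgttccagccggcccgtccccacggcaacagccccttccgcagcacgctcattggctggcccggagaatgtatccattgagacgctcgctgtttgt
SPRY2: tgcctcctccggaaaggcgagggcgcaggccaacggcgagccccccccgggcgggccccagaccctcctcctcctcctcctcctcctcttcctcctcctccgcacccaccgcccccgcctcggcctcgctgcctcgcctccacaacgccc

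The promoter table had windows for 7 of the 9 members, and none for DUSP4 and DUSP5. On both strands of the full windows of 250 bases before to 50 after the start, 6 motifs were searched, namely TGACGTCA, the AP-1 site TGANTCA, the ETS site CCGGAAGT, the serum response element CCATATTAG, the TCF/LEF site CTTTGATC and the glucocorticoid receptor motif AGAACA. These are held by 1.85%, 7.71%, 4.14%, 0.0968%, 0.652% and 14.8% of all 35116 windows of the table. TGACGTCA was found in DUSP1 alone of the 7, at position -125 from the start. The AP-1 site was found 2 times in 1 of the 2 windows of SPRED2, and the glucocorticoid receptor motif once in each of 2 of the 3 windows of SPRY2. No ETS, serum response or TCF/LEF letters were found in these windows, and a match or its absence says nothing of binding.

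DUSP1 dominated the group in every library. This gene encodes a nuclear phosphatase that acts on p38 and JNK as well as ERK and is an immediate early gene. It had 203 CPM in shScr day 3 (95% Poisson interval 199 to 208), 235 in shAPC day 3 (230.4 to 241), 256 in shScr day 7 (250.2 to 261) and 230.04 in shAPC day 7 (225 to 236). It thus supplied 55.5% to 65.3% of the UMIs of the 9 genes together, whose summed level was 360, 425, 422 and 352 CPM in the same order. DUSP5 was second in all 4 libraries, and DUSP6, SPRY2, SPRY4 and SPRED1 followed within 17.6 to 37.1 CPM. Their order changed between libraries, and in shScr day 3 the intervals of DUSP6 (25.4 to 28.7 CPM), SPRY4 (25.1 to 28.3) and SPRY2 (23.5 to 26.6) overlapped. In shAPC day 7 the interval of DUSP5 (22.04 to 25.7 CPM) overlapped those of DUSP6 (21.9 to 25.5) and SPRY2 (21.6 to 25.2). In shAPC day 3 the interval of DUSP5 (37.4 to 41.6 CPM) overlapped that of SPRY2 (35.1 to 39.2). SPRED2 ranked seventh, SPRY1 eighth and DUSP4 last in each library.

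**Figure D1:**
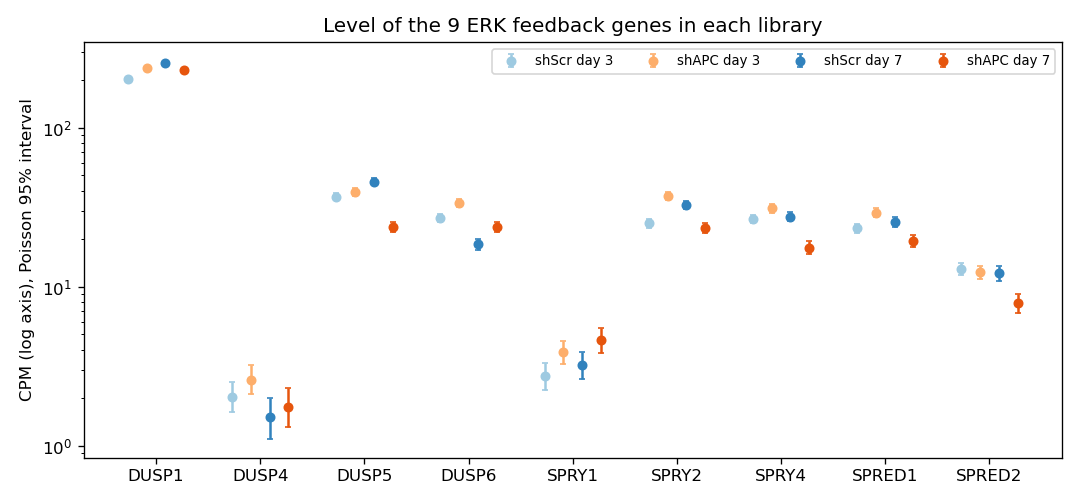
Level of each of the 9 genes in the 4 libraries, in CPM on a log axis, with exact Poisson 95% intervals as bars. DUSP1 lies between 203 and 256 CPM, DUSP4 and SPRY1 under 5 CPM, and the shAPC day 7 point is the lowest of the 4 for DUSP5, SPRY2, SPRY4, SPRED1 and SPRED2.

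The nuclear phosphatases DUSP5 and DUSP4 stood at opposite ends. DUSP5, which acts on ERK alone and holds it in the nucleus, had 36.7 CPM in shScr day 3, 39.4 in shAPC day 3, 45.8 in shScr day 7 and 23.8 in shAPC day 7. It was lowest in shAPC day 7, whose interval (22.04 to 25.7 CPM) did not reach that of any other library. DUSP4, which acts on ERK and JNK, had 81, 91, 47 and 50 UMIs in the same order, or 1.505 to 2.60 CPM, and its intervals overlapped within each day. DUSP6 is the cytoplasmic phosphatase of the group and specific to ERK. It had 27.0 CPM in shScr day 3, 33.5 in shAPC day 3, 18.5 in shScr day 7 and 23.7 in shAPC day 7. In CPM it was thus higher in shAPC at each day and lower at day 7 in each arm. Relative to the median of all genes, its log2 ratio of shAPC to shScr was 0.037 at day 3 and 0.45 at day 7.

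Among the Sprouty genes, whose products restrain receptor signals to RAS and RAF, SPRY2 had 25.03, 37.1, 32.7 and 23.4 CPM in the same order. It was thus higher in shAPC at day 3 and lower in shAPC at day 7, with intervals in shAPC day 7 (21.6 to 25.2 CPM) and shScr day 3 (23.50 to 26.6 CPM) that overlapped. SPRY4 had 26.6, 31.0, 27.6 and 17.6 CPM, with shAPC day 7 the lowest. SPRY1 had 109, 135, 100 and 131 UMIs, or 2.74, 3.86, 3.20 and 4.604 CPM, and was higher in shAPC at each day. SPRED1, which brings the RAS inactivator NF1 to the membrane, had 23.2, 29.2, 25.4 and 19.4 CPM. Its relative SPRED2 had 12.9, 12.3, 12.1 and 7.84 CPM, with 3 libraries close together and shAPC day 7 under them.

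At day 3 the members were mostly higher in shAPC, by about as much as all genes were. With total UMIs as the scale, the median log2 ratio of shAPC to shScr was 0.31 over the 9 members. It was 0.28 over the 5175 genes tested, those that reached 20 CPM in either library, on log2(CPM + 1). By that filter and measure the 6 members tested had 0.26. SPRY2 had the largest difference, 1.48-fold (log2 ratio 0.57, 95% interval 0.45 to 0.69). SPRY1 followed with 0.50 (0.12 to 0.87), SPRED1 with 0.33 (0.20 to 0.46), DUSP6 with 0.31 (0.19 to 0.43), SPRY4 with 0.22 (0.10 to 0.34) and DUSP1 with 0.21 (0.17 to 0.26). The intervals of DUSP5 (0.10, -0.0030 to 0.21), DUSP4 (0.36, -0.092 to 0.81) and SPRED2 (-0.070, -0.26 to 0.12) included 0.

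The scaling decided how the day 3 values are read. Of the 6 members that reached 20 CPM, 5 had an interval above 0, where 71.1% of all genes tested had one, and 0 had one below 0 (15.4% of all genes). Of these 6 only SPRY2 had an interval above the median of all genes, at 0.29 relative to it, where 37.9% of all genes did. DUSP1 and DUSP5 had an interval below it, at -0.064 and -0.17, where 38.6% did. With TMM factors, which assume that most genes are unchanged, the ratios of DUSP1, DUSP6, SPRY4 and SPRED1 turned to -0.17, -0.068, -0.16 and -0.053. SPRY2 stayed positive under every setting tried, from 0.19 to 0.59, and so did SPRY1, from 0.12 to 0.64. Leaving out the cells with an ATF3 UMI, a transcript of stressed cells that had 44.7 CPM in shAPC day 3 and 1.03 in shScr day 3, lowered the ratio of SPRED1 from 0.33 to 0.12, raised that of DUSP1 from 0.21 to 0.29 and left the other 7 within their counting intervals, with 0.19 for all genes. No member was at least 1.5-fold higher or lower, against 17.1% of all genes higher and 1.51% lower.

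At day 7 the members split, with DUSP5, SPRY4, SPRED2, SPRY2, SPRED1 and, by less, DUSP1 lower in shAPC and DUSP6 and SPRY1 higher. DUSP5 was at 0.52 of its shScr level (log2 ratio -0.94, -1.08 to -0.81), the lowest ratio of the group. SPRY4 was at 0.64 (-0.65, -0.81 to -0.49), SPRED2 at 0.65 (-0.63, -0.87 to -0.38), SPRY2 at 0.72 (-0.48, -0.63 to -0.34) and SPRED1 at 0.76 (-0.39, -0.55 to -0.23). DUSP1 was at 0.90 (-0.15, -0.20 to -0.11), and its log2 ratio ran from -0.37 to -0.091 over the settings tried. DUSP6 was 1.28-fold higher (0.36, 0.20 to 0.52) and SPRY1 1.44-fold (0.52, 0.14 to 0.91), and the interval of DUSP4 (0.22, -0.38 to 0.83) included 0. The 9 members thus had a median of -0.39. The 4573 genes tested had -0.095 on log2(CPM + 1), and by that filter and measure the 6 members tested had -0.42.

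At day 7 TMM and DESeq2 size factors moved the median of all genes to -0.11 and -0.12, and totals without mitochondrial and ribosomal protein genes moved it to -0.010. Of the 6 members tested, 5 (DUSP1, DUSP5, SPRY2, SPRY4 and SPRED1) had an interval below 0 and 1 above it, where 48.8% and 25.8% of all genes did. SPRED2 did not reach 20 CPM and was not among those tested. The same 5 had an interval below the median of all genes, where 37.3% of all genes tested did, and DUSP6 alone had one above it, where 36.3% did. Relative to that median DUSP5 was at -0.85, SPRY4 at -0.55, SPRED2 at -0.53, SPRY2 at -0.39, SPRED1 at -0.30 and DUSP1 at -0.057, against 0.45 for DUSP6 and 0.62 for SPRY1. The ratios here are of CPM, while the median is on log2(CPM + 1). By that measure, before the median is taken off, SPRED2 was at -0.57 and SPRY1 at 0.42, and neither reached 20 CPM. DUSP5 and SPRY4 were at least 1.5-fold lower, 2 of the 6 tested (1 with the reduced totals), a size that 7.65% of all genes reached, and none was 1.5-fold higher (2.82% of all genes). Leaving out the cells with an ATF3 UMI kept all 9 day 7 ratios within their counting intervals.

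**Figure D2:**
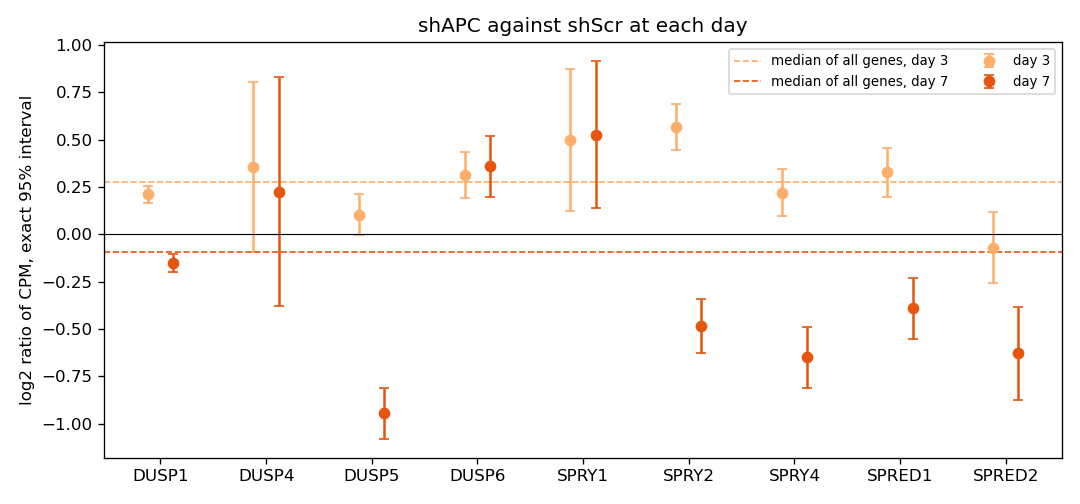
Log2 ratio of CPM in shAPC to shScr for each gene at day 3 and day 7, with exact conditional binomial 95% intervals as bars and the median of all genes of each day as a dashed line. At day 3 SPRY2 lies at 0.57 and SPRED2 at -0.070 on either side of the dashed line at 0.28, while at day 7 DUSP5 lies at -0.94 and DUSP6 and SPRY1 at 0.36 and 0.52.

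The barcodes over the mitochondrial limit, which took no part in the values above, were read in the same way because the limit removed so many of them from shAPC day 7. They come from the same libraries and are no replicate. In them, at day 7, DUSP5 had 44.2 CPM in shScr against 18.9 for shAPC (log2 ratio -1.22, interval -1.40 to -1.04). SPRY4 was at -0.98 (-1.20 to -0.77), SPRED2 at -0.76 (-1.05 to -0.47), SPRY2 at -0.59 (-0.80 to -0.38) and DUSP1 at -0.28 (-0.34 to -0.22). DUSP6 was at 0.67 (0.46 to 0.87) and SPRY1 at 1.46 (0.88 to 2.08), with 29 and 159 UMIs of SPRY1 in shScr and shAPC. The interval of SPRED1 (-0.085, -0.27 to 0.10) included 0. At day 3 the interval of SPRY2 in these barcodes included 0 (0.21, -0.11 to 0.54), as did those of DUSP6 (0.19, -0.13 to 0.51), SPRY4 (0.30, -0.059 to 0.66), SPRED1 (0.37, -0.0074 to 0.75), DUSP5, DUSP4 and SPRED2, while DUSP1 (0.31, 0.19 to 0.43) and SPRY1 (1.25, 0.33 to 2.24) lay above 0. With all deposited barcodes the day 7 ratio of SPRED1 was -0.20, its smallest difference over the settings tried.

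Over time, with total UMIs as the scale, the ratios of the 2 arms lay apart for DUSP1, DUSP5, SPRY2, SPRY4, SPRED1 and SPRED2. The intervals of the arms overlapped for DUSP6, SPRY1 and DUSP4. All genes differed between the arms too, with medians of 0.051 in shScr and -0.34 in shAPC. Relative to these medians DUSP1 was alike in the arms, at 0.28 and 0.30, and SPRED2 was at -0.15 and -0.32. DUSP5 was at 0.27 and -0.39, SPRY2 at 0.33 and -0.33, SPRY4 at 1.8e-05 and -0.48 and SPRED1 at 0.076 and -0.26. The 2 contrasts over time use the same 4 libraries as the contrasts above, so they are another view of the same values and not further evidence. In shScr, day 7 against day 3, SPRY2 was at a log2 ratio of 0.38 (0.26 to 0.51), DUSP1 at 0.33 (0.29 to 0.38) and DUSP5 at 0.32 (0.21 to 0.43), while DUSP6 was at -0.55 (-0.70 to -0.40). The intervals of SPRED1, SPRY4, SPRED2, SPRY1 and DUSP4 included 0. Of the 6 members tested 3 had an interval above 0 and 1 below it, where 43.9% and 30.7% of all genes had one. The intervals of the same members lay above and below the median of all genes, where 37.0% and 36.9% did. None was at least 1.5-fold higher (3.12% of all genes) or lower (3.71%).

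In shAPC the same contrast gave -0.82 (-0.97 to -0.66) for SPRY4, -0.73 (-0.86 to -0.60) for DUSP5, -0.67 (-0.80 to -0.53) for SPRY2, -0.65 (-0.89 to -0.41) for SPRED2, -0.59 (-0.74 to -0.44) for SPRED1, -0.57 (-1.10 to -0.054) for DUSP4 and -0.50 (-0.64 to -0.36) for DUSP6. DUSP1 (-0.034, -0.081 to 0.013) and SPRY1 (0.25, -0.10 to 0.61) had intervals that included 0. Of the 6 members tested, 5 had an interval below 0 and 0 above it, where 73.8% and 12.7% of all genes did. All genes tested had a median of -0.34 in this contrast, and 5 of the 6 members tested had an interval below that median, where 38.0% of all genes did, and DUSP1 lay above it, where 37.1% did. At least 1.5-fold lower were 3 of the 6 (DUSP5, SPRY2 and SPRY4), where 24.1% of all genes were, and with TMM or DESeq2 size factors the count was 0. None was 1.5-fold higher (0.966% of all genes). DUSP6 was therefore lower at day 7 by nearly the same ratio in both arms, at 18.5 of 27.0 CPM in shScr and 23.7 of 33.5 CPM in shAPC. Relative to the all-gene medians of 0.051 and -0.34 its values were -0.60 and -0.17, and the second changed sign between settings, from -0.30 to 0.016.

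**Figure D3:**
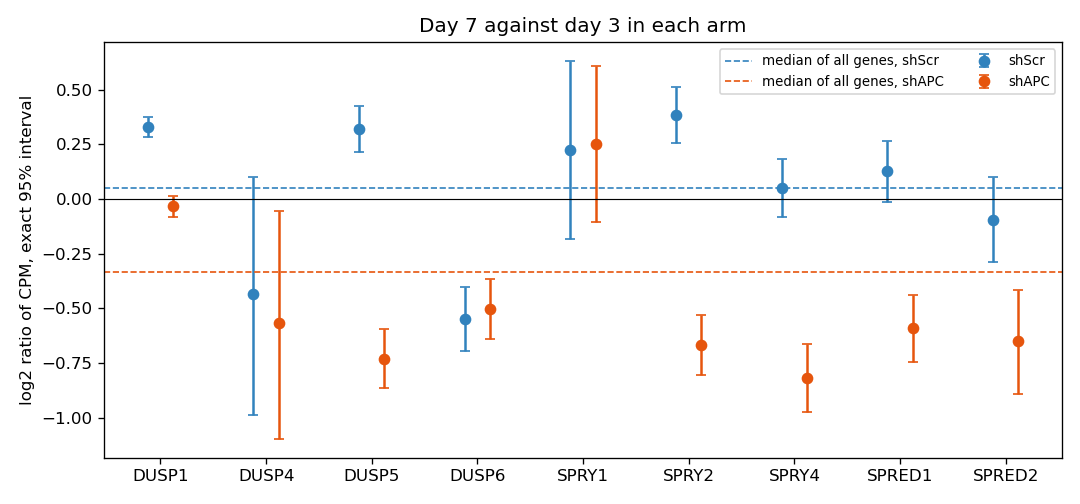
Log2 ratio of CPM at day 7 to day 3 for each gene, by arm (shScr, shAPC), with exact conditional binomial 95% intervals as bars and the median of all genes of each arm as a dashed line. DUSP6 has -0.55 and -0.50 in the 2 arms, whereas DUSP5 has 0.32 in shScr and -0.73 in shAPC.

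The share of cells with a UMI was compared after each cell had been thinned at random to 10000 UMIs, because unthinned shares follow the depth of a library. Cells under that depth were left out, which kept 765 cells of shScr day 3, 576 of shAPC day 3, 919 of shScr day 7 and 927 of shAPC day 7 and left out 351, 212, 1681 and 551. DUSP1 was found in 74.6%, 80.03%, 82.5% and 75.7% of these cells, against 72.9%, 77.03%, 53.4% and 67.7% of all kept cells without thinning. DUSP5 was found in 26.5% (23.4 to 29.8), 26.7% (23.2 to 30.6), 32.5% (29.5 to 35.7) and 17.2% (14.8 to 19.7), so that its day 7 intervals did not overlap. Its unthinned day 7 shares were 24.4% and 21.9%. SPRY2 was found in 19.3% (16.6 to 22.3), 30.2% (26.5 to 34.1), 26.1% (23.3 to 29.1) and 18.8% (16.3 to 21.4), with no overlap at either day at this depth, and unthinned in 39.6%, 52.4%, 20.0% and 25.6%. Thinned to 5000 UMIs, SPRY2 kept apart at day 7 (15.3% and 8.55%) but overlapped at day 3 (8.37% to 12.7% and 11.5% to 17.1%), and at 2000 UMIs it overlapped at both days, with 4.26% and 4.05% at day 7. The day 7 intervals of DUSP5 did not overlap at 5000 UMIs (18.2% and 8.55%) or 2000 UMIs (8.76% and 4.97%) either. For SPRY4 the day 7 shares were 20.8% in shScr and 13.2% in shAPC (unthinned 17.5% and 19.4%), and for SPRED1 23.5% and 16.6% (unthinned 20.2% and 25.9%). At 5000 UMIs these intervals overlapped, at 9.88% to 13.9% and 7.34% to 11.0% for SPRY4 and 10.7% to 14.8% and 7.89% to 11.7% for SPRED1. At 2000 UMIs they overlapped too, with shares of 4.76% and 2.58% for SPRY4 and 4.67% and 4.05% for SPRED1. The intervals of DUSP6 overlapped at both days, at 19.9% and 25.2% and at 15.3% and 18.7%.

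No second cell type is present to gauge free RNA of the line itself, so how much of a low share it makes up was not tested. Blood genes that the line should lack show only RNA from outside it. PTPRC and CD3E had 0 thinned UMIs in all 4 libraries, which allows a share of up to 0.392%, 0.521%, 0.326% and 0.324% by the limit of 3 counts, and HBB, HBA1 and LYZ were found in at most 0.694% of cells. DUSP4 was found in 0.971% to 2.95% and SPRY1 in 2.61% to 4.64% of cells.

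**Figure D4:**
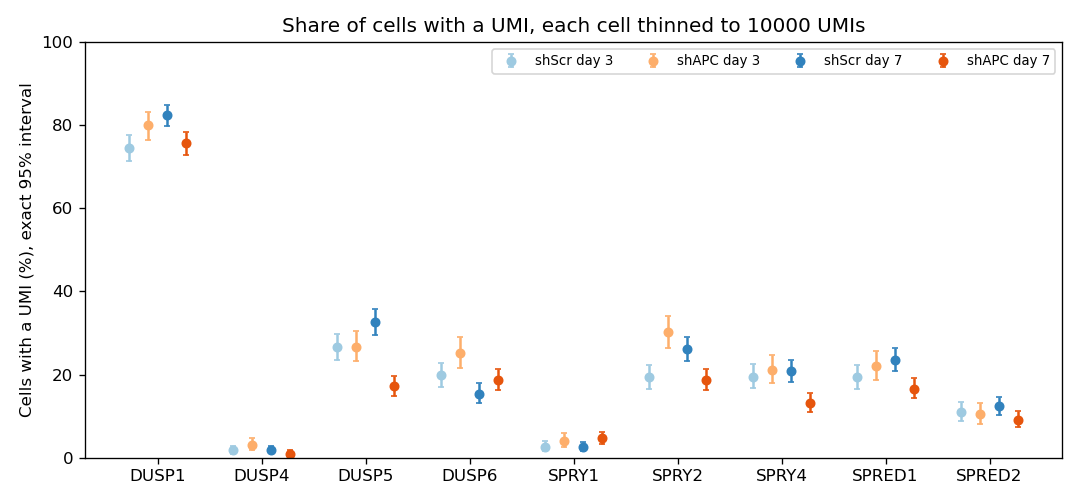
Percent of cells with at least 1 UMI of each gene after thinning each cell to 10000 UMIs, with exact binomial 95% intervals as bars, for the 4 libraries. DUSP5 and SPRY2 have their lowest share in shAPC day 7 (17.2% and 18.8%), and DUSP4 and SPRY1 stay under 5% in every library.

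Within a library the thinned counts of the members varied over cells to different degrees. The variance of the thinned UMIs per cell divided by their mean, which is 1 for counts that vary by sampling alone, was 1.84 to 2.46 for DUSP1, 1.41 to 1.62 for DUSP5, 1.28 to 1.83 for DUSP6, 1.13 to 1.37 for SPRY2 and 1.20 to 1.52 for SPRY4. SPRED1 and SPRED2 stayed near 1, at 0.967 to 1.22 and 0.972 to 1.12. For the same relative spread between cells this value rises with the mean, so it does not rank the members by unevenness. The mean was 1.97 to 2.50 thinned UMIs per cell for DUSP1 and 0.0939 to 0.129 for SPRED2. A cell held a median of 2 of the 9 members in each library, and cells with none made up 11.1% of shScr day 3, 6.60% of shAPC day 3, 4.46% of shScr day 7 and 13.1% of shAPC day 7.

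Pearson's r between members across cells, over the 36 pairs and averaged over the 4 libraries, ran from -0.026 (DUSP5 with SPRY1) to 0.16 (DUSP6 with SPRY4). The points are cells of 1 library and equal depth, and counts are sparse, so these are descriptions only. DUSP6 and SPRY4 had r of 0.22, 0.21, 0.11 and 0.092 in the same order of libraries. With 5000 UMIs a cell their mean r was 0.076. The highest pair was then DUSP5 with SPRY4 (0.12) and the lowest DUSP4 with SPRED2 (-0.020). DUSP1 was the only member abundant enough to look for genes of like pattern, and over 3822 genes those with the highest mean r were FBN2 (0.25) and CTGF (0.25), which encode a matrix fibrillin and a matricellular growth factor. With 5000 UMIs a cell the mean r of FBN2 and CTGF with DUSP1 was 0.16 and 0.15.

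Cells marked as cycling by a UMI of MKI67 or TOP2A after thinning made up 23.8%, 29.7%, 30.5% and 22.2% of the cells, in the order shScr then shAPC at day 3 and shScr then shAPC at day 7. SPRY2 was higher in these cells by log2 ratios of 0.48 (-0.017 to 0.95), 0.21 (-0.21 to 0.61), 0.75 (0.42 to 1.07) and 0.50 (0.046 to 0.94) in that order, with 2 intervals above 0, and the unmarked cells hold cycling cells in which neither gene was captured. DUSP1 was lower, by -0.38 (-0.57 to -0.19), -0.23 (-0.40 to -0.054), -0.23 (-0.36 to -0.096) and -0.14 (-0.29 to 0.0091). With 5000 UMIs a cell, the ratios were 0.93, 0.49, 0.75 and 0.83 for SPRY2, with 3 intervals above 0, and -0.32, -0.056, -0.27 and -0.022 for DUSP1, with 2 below 0. In unmarked cells the day 7 levels of SPRY2 were 29.0 CPM in shScr and 20.9 in shAPC, and in marked cells 48.6 and 29.6, so that shAPC was lower in both. DUSP5 had 47.9 and 22.1 CPM in unmarked and 55.4 and 28.2 in marked cells at day 7. Its ratio of marked cells to the rest was 0.49 (0.11 to 0.86) in shScr day 3, which turned to -0.27 (-0.92 to 0.33) with 5000 UMIs a cell. It was 0.45 (0.031 to 0.87) in shAPC day 3, 0.21 (-0.079 to 0.49) in shScr day 7 and 0.35 (-0.11 to 0.79) in shAPC day 7. With 5000 UMIs a cell these stayed positive, at 0.60 (-0.048 to 1.22), 0.46 (0.017 to 0.89) and 0.75 (0.044 to 1.42). For cycling cells of shScr day 3 the ratio was also 0.96 (0.30 to 1.60) for SPRED2 and -0.58 (-1.18 to -0.0095) for SPRY4. In shAPC day 7 it was 0.50 (0.0031 to 0.97) for SPRED1. With 5000 UMIs a cell these became 0.23 (-0.88 to 1.21), -0.62 (-1.55 to 0.19) and 0.46 (-0.28 to 1.15). At 10000 UMIs the other intervals of SPRED2, SPRY4 and SPRED1, and all of DUSP4, DUSP6 and SPRY1, included 0. Cells with an ATF3 UMI made up 9.03% of shAPC day 3 and 1.57% to 2.83% of the other libraries. In the 52 such cells of shAPC day 3, SPRY2 had 23.1 CPM against 42.6 in the rest (log2 ratio -0.88, -1.86 to -0.050), and the intervals of the other 8 members included 0. With 5000 UMIs a cell the SPRY2 interval included 0 too (-0.55, -2.45 to 0.86). In the 26 such cells of shScr day 7, DUSP1 had 404 CPM against 245 in the rest (0.72, 0.42 to 1.001), which turned to -0.49 (-1.37 to 0.26, 16 cells) with 5000 UMIs a cell. In the 16 such cells of shAPC day 7 the ratio was 0.51 (0.091 to 0.90) and became 0.44 (-0.38 to 1.14), and in the 12 of shScr day 3 it was 0.49 (-0.051 to 0.99).

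The other genes of the pathway did not all differ in the same way as the members. Of the 24 genes listed for the ERK cascade, 14 reached 20 CPM at day 3, with 7 intervals above 0 and 5 below (71.1% and 15.4% of all genes) and a median of 0.084. At day 7 13 did, with 0 above and 9 below (25.8% and 48.8% of all genes) and a median of -0.18. MAP2K1, which encodes the kinase MEK1, was the lowest of the list at both days. It had 34.2 CPM in shScr against 13.6 for shAPC at day 3 (log2 ratio -1.33, -1.49 to -1.18) and 36.1 and 11.1 CPM at day 7 (-1.71, -1.89 to -1.52). MAP2K2, for the kinase MEK2, had 142 and 123 CPM at day 3 and 137 and 121 at day 7. EGFR, the receptor for the EGF in the medium, was the highest of the list at day 3 with 37.1 and 66.05 CPM (0.83, 0.74 to 0.93), and had 32.7 and 30.6 CPM at day 7 (-0.096, -0.23 to 0.035). MAPK3, for ERK1, was the highest at day 7 with 0.099 (-0.0041 to 0.20).

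The listed transcripts that are also read as ERK output were higher at day 3 than the members were. Both lists were chosen with earlier results of these data known, so the comparison is a description only. Of the 12 listed, 9 reached 20 CPM, 8 with an interval above 0 and 0 below, where 71.1% and 15.4% of all genes had one, and their median of 0.59 stood beside 0.26 for the 6 members tested by the same filter and 0.28 for all genes. At least 1.5-fold higher were 5 of these 9 and 0 of the 6 members, where 17.1% of all genes were. PHLDA1 was the highest, at 76.0 CPM in shScr and 204 in shAPC (1.43, 1.36 to 1.49), and ETV5 the lowest, at 29.4 and 28.3 CPM. At day 7 the median of the 8 tested was -0.22, beside -0.42 for the 6 members, with 1 interval above 0 and 5 below (25.8% and 48.8% of all genes). EGR1 was the highest there (0.16, 0.066 to 0.26) and FOSL1 the lowest (-0.52, -0.63 to -0.42).

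Among the 8 further genes of the DUSP, Sprouty and SPRED families, only DUSP10, a phosphatase of p38 and JNK, reached 20 CPM, with 11.9 CPM in shScr against 20.8 for shAPC at day 3 (0.81, 0.64 to 0.98) and 15.4 and 16.0 CPM at day 7. Hydrocortisone is in the medium and DUSP1 is a known target of the glucocorticoid receptor, so 7 genes that respond to glucocorticoids were read beside it. Of these 3 reached 20 CPM at day 3, with a median of -0.50, and 4 at day 7, with a median of -0.33. These medians cover only part of the list. The genes under 20 CPM had log2 ratios from -0.15 to 0.90 at day 3 and from -0.72 to -0.0035 at day 7. FKBP5 was higher in shAPC at both days, by 0.67 and 0.33. TSC22D3 was lowest at day 3 (-0.67) and ERRFI1, an inhibitor of EGFR, at day 7 (-1.02).

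**Figure D5:**
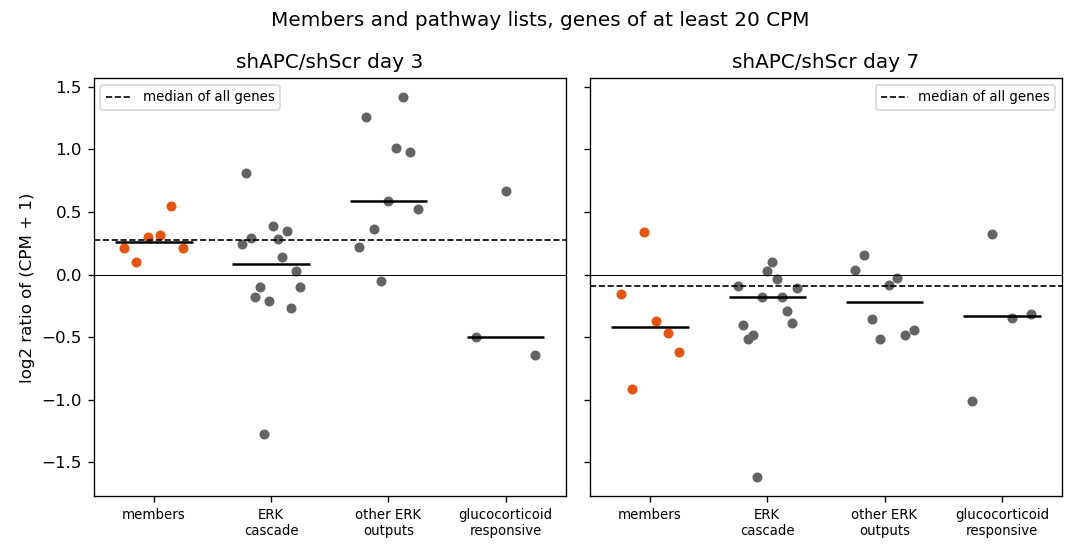
Log2 ratio of CPM + 1 in shAPC to shScr at day 3 (left) and day 7 (right) for the genes of at least 20 CPM in each list, with the list median as a black bar and the median of all genes as a dashed line. MAP2K1 is the lowest point of the ERK cascade in both panels, and the other ERK outputs have a median of 0.59 at day 3, above the 0.26 of the members.

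All 9 members are protein-coding genes of GRCh38 (GENCODE release 44). DUSP5 (ENSG00000138166) lies on chromosome 10 from 110497907 to 110511533 on the plus strand and DUSP6 (ENSG00000139318) on chromosome 12 from 89347235 to 89352501 on the minus strand. SPRY2 (ENSG00000136158) lies on chromosome 13 from 80335976 to 80341126, SPRY4 (ENSG00000187678) on chromosome 5 from 142310427 to 142326455 and DUSP1 (ENSG00000120129) on chromosome 5 from 172768096 to 172771195, all on the minus strand. SPRY1 (ENSG00000164056) lies on chromosome 4 from 123396795 to 123403760 and SPRED1 (ENSG00000166068) on chromosome 15 from 38252836 to 38357249, both on the plus strand. SPRED2 (ENSG00000198369) lies on chromosome 2 from 65310851 to 65432637 on the minus strand.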

How the data were processed

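Single-cell RNA sequencing data of 4 libraries, 1 per group, were analysed. The authors aligned the reads to GRCh38 and deposited raw UMI counts per gene and cell barcode; Cell Ranger 3.0.2 made the shScr matrices of counts and 3.0.0 the shAPC ones, per the file headers, so that the software version and the shRNA cannot be told apart. The annotation release is not given in the sources used here, and the kit is v2 in the labels and V3 in the methods. The authors' ComBat correction and imputation were not applied. Doublets were not removed.

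The members and gene lists were chosen with earlier results of these data known. For each library, the UMIs of kept cells were added up (39797418, 34944674, 31230868 and 28451455 UMIs) and scaled to CPM. CPM have exact Poisson intervals, log2 ratios exact conditional binomial (Clopper-Pearson) intervals and shares exact binomial (Clopper-Pearson) intervals, all at 95%, for counting error only. Background percentages cover genes that reached 20 CPM in either library, on log2(CPM + 1) for fold counts. Values and intervals relative to the median of all genes set ratios of CPM against a median on log2(CPM + 1), unless log2(CPM + 1) is named for both. All members are named; of the other lists, the highest and lowest gene in each shAPC/shScr comparison, with APC and the genes used to split cells. MAP2K2 was named after its values were seen. Alternatives were TMM (edgeR 4.0.16), DESeq2 1.42.0 size factors, other totals, barcode sets, cell weights, minimum levels, pseudocounts and thinning depths, and 2 added after the data were seen (without ATF3 cells and without shared barcodes). Ratio and thinning functions were tested on simulated data. Python 3.11.15, numpy 2.4.6 and scipy 1.17.1 were used. Values of 2 genes outside the members are not reported here.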

Additional observations from a re-analysis of the deposited data

Results flagged for a closer look

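SPRY2 is the member whose difference between shAPC and shScr pointed in opposite directions at the 2 days, with both counting intervals on their own side of 0 and of the median of all genes. Its log2 ratio was 0.57 at day 3 and -0.48 at day 7, or 0.29 and -0.39 relative to all genes. With 1 library per group the difference between the days was not tested. Cells with a MKI67 or TOP2A UMI, in which SPRY2 was higher, made up 29.7% of shAPC and 23.8% of shScr cells at day 3 and 22.2% and 30.5% at day 7, and the part of this in the SPRY2 values was not tested. In the barcodes over the mitochondrial limit the day 3 ratio was 0.21 (-0.11 to 0.54).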

How the results depend on the processing

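The alternatives gave 288 member ratios, of which 219 stayed within the counting interval of the reported value, 61 moved outside it in the same direction or from an interval that held 0, and 8 changed sign. The 8 are day 3 ratios of shAPC to shScr, at -0.17, -0.068, -0.16 and -0.053 for DUSP1, DUSP6, SPRY4 and SPRED1 with TMM and at -0.15, -0.051, -0.14 and -0.036 with DESeq2 size factors. The day 3 median of the 9 members turned to -0.068 (TMM) and -0.051 (DESeq2). Relative to all genes it was 0.059 and 0.065, against 0.037 with total UMIs. With total UMIs the 6 members that reached 20 CPM had -0.018 relative to all genes, on log2(CPM + 1). The day 7 median was -0.20 with all deposited barcodes. In shAPC over time the median was -0.29 with TMM, -0.28 with DESeq2 size factors and -0.41 without mitochondrial and ribosomal protein genes in the totals, and in shScr it was 0.29 when CPM were averaged over cells. The count of members at least 1.5-fold lower over time in shAPC fell from 3 to 0 with either size factor and to 1 with the reduced totals. At day 7 the count of 2 became 1 with a pseudocount of 5 CPM and with the reduced totals. Single members also passed 1.5-fold where none had, 1 higher at day 3 and 1 higher over time in shScr when CPM were averaged over cells, and 1 lower over time in shScr with TMM. Of the splits by cell state, DUSP5 in cycling cells of shScr day 3 changed from 0.49 to -0.27 and DUSP1 in ATF3 cells of shScr day 7 from 0.72 to -0.49 when cells were thinned to 5000 UMIs. Another random draw moved 1 of the 36 thinned shares outside its interval, SPRED2 in shScr day 7, from 12.3% to 9.68%, and with 2000 UMIs the day 7 shares of SPRY2 were 4.26% and 4.05%, with intervals that overlapped. No paired analysis was possible because each group holds 1 library. DUSP4 and SPRY1, with 47 to 135 UMIs per library, are limited by depth.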
